A study of Mus musculus with 14 samples.

Results

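The libraries described here are 2 ATAC-seq libraries of fusion-carrying mouse neural stem cells given the EZH2 inhibitor GSK343 and 2 libraries of the same cells titled DMSO, 4 of the 14 libraries of the series. They were taken by title and treatment label, and were compared through their deposited peak lists on chromosomes 1 to 19. Each list was shortened to the length of the shortest, 11806 peaks, by the authors' −log10 q-value, and overlapping peaks of the 4 lists were merged into 20460 regions. ATAC-seq finds open chromatin because the Tn5 transposase inserts sequencing adapters where DNA is accessible, and a peak is a place where such insertions pile up. The study mapped open chromatin in neural stem cells that carried an empty vector or the ZFTA-RELA fusion, and in fusion cells given an inhibitor or a metabolite.

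ZR_GSK343 denotes ZFTA-RELA neural stem cells given GSK343 at 10 µM for 96 h. ZR_DMSO denotes ZFTA-RELA neural stem cells whose titles name DMSO, although their treatment label reads PBS or vehicle, so which vehicle they received cannot be told from the labels. Other groups of the same library series serve as reference. ZR denotes fusion cells without a named agent in the title, EV denotes empty-vector cells, and ZR_dmCitra denotes fusion cells treated, per their label, with 10 mM citraconate. Each group has 2 libraries of 50000 cells. The protocols place the fusion cells in a medium with EGF and basic FGF. The labels name 1 fusion cell line and do not say how the fusion was introduced, whether the line is a clone, or whether the 2 replicates of a group came from separate cultures. The spread between them, and with it every p-value, may therefore be technical.

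EZH2 is the catalytic subunit of Polycomb repressive complex 2 (PRC2), which methylates lysine 27 of histone H3. Polycomb repressive complex 1 (PRC1) reads that mark through its CBX subunits, and together the complexes keep developmental regulators such as Hox, forkhead and homeodomain genes silent in cells that do not need them. GSK343 competes with the methyl donor of EZH2, and the mark is then lost over successive cell divisions. ZFTA-RELA joins a zinc finger protein to the NF-kB subunit RELA and drives a class of ependymoma.

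The deposited lists of this comparison differed in length and in peak shape. On chromosomes 1 to 19 the ZR_DMSO lists held 11806 and 20051 peaks and the ZR_GSK343 lists 18324 and 55369. The means were 15928.5 ± 5830.1 and 36846.5 ± 26194.8 (SD, n = 2 each, two-sided exact permutation test, p = 0.667). The summed width of the 11806 best peaks was 3.53 and 3.73 Mb for ZR_DMSO and 6.60 and 11.1 Mb for ZR_GSK343, against 11.6 to 13.1 Mb for EV, ZR and ZR_dmCitra. In covered length ZR_GSK343 replicate 2 thus came close to the reference groups, and both ZR_DMSO libraries were furthest from them. The lowest −log10 q kept was 3.43 and 7.22 in ZR_DMSO and 6.90 and 28.0 in ZR_GSK343. Of 10 neural stem cell markers, 3 and 5 had a gene-end peak, as defined below, in the deposited ZR_DMSO lists and 6 and 8 in the ZR_GSK343 lists. Sox9, Vim and Hes1 had one in all 4, and Sox2 and Nes in none. Neuron, astrocyte and oligodendrocyte markers had none in ZR_DMSO or in ZR_GSK343 replicate 1, and 2 of 3, 1 of 4 and 1 of 5 in replicate 2. Microglia markers had 0 and 2 of 6 in ZR_DMSO and 2 of 6 in each ZR_GSK343 list, and mesenchymal and vascular markers 0 of 6 in both ZR_DMSO lists and 1 and 2 of 6 in ZR_GSK343. Read depth is unknown from the lists, and its part in the results below was not tested.

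The first comparison asked where open chromatin lay with and without the inhibitor. Peaks of the inhibitor libraries lay at gene ends more often. A gene end here means within 1 kb of either end of a protein-coding gene, since the gene table used has no strand. Of the 11806 best peaks, 39.9% and 40.4% lay at a gene end in ZR_DMSO, and 58.5% and 65.2% did so in ZR_GSK343. The groups did not overlap, and the difference was 21.7 ± 4.73 percentage points (SD of the difference, n = 2 each, two-sided exact permutation test, p = 0.333, the smallest this design allows, adjusted p = 0.417 over 5 tests). The share inside genes was 27.7% and 27.5% against 19% and 18.7%, and the share between genes 32.5% and 32.1% against 22.5% and 16.1%. For reference, gene ends took 55% and 55.9% of the peaks in EV, 46.3% in both ZR libraries, and 45.8% and 47.7% in ZR_dmCitra. In the second library series gene ends took 41.3% and 40.2% in DMSO_50K, labelled empty vector, and 58.2% and 59.0% in Citraconate_50K, labelled fusion. Median peak width was 229 and 257 bp in ZR_DMSO and 472 and 852 bp in ZR_GSK343, a difference of 419 ± 269 bp (SD of the difference, n = 2 each, exact permutation p = 0.333). The gene-end difference rests on equal list length: over the lists as deposited it was −3.92 percentage points (exact permutation p = 1), with 39.9% and 36.0% in ZR_DMSO and 45.7% and 22.3% in ZR_GSK343.

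**Figure D1:**
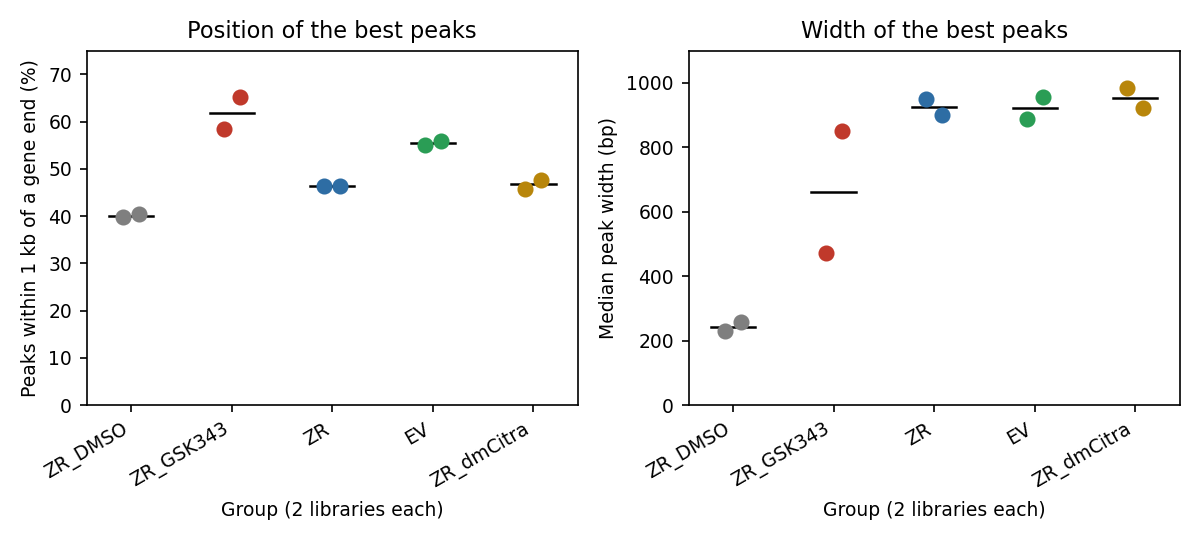
Share of the best 11806 peaks of each library that lie within 1 kb of a gene end (left, percent) and their median width (right, bp), for 5 groups of 2 libraries; points are libraries and black bars group means. The 2 ZR_GSK343 libraries sit at 58.5% and 65.2%, above all other libraries shown, and the 2 ZR_DMSO libraries at 39.9% and 40.4%, below all others, while ZR_DMSO peaks are the narrowest.

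Regions were then called one by one. Gained regions were those in both ZR_GSK343 lists and in neither ZR_DMSO list, and lost regions those in both ZR_DMSO lists and in neither ZR_GSK343 list. Of the 20460 regions 2240 were gained (10.9%) and 1644 lost (8.04%), while 4502 had a peak in all 4 lists and 12074 were mixed. Gained and lost regions lay in different places. Of the gained regions 1762 (78.7%) were at gene ends, 329 inside genes and 149 between genes, against 54 (3.28%), 752 and 838 of the lost ones. Read by position, 20.9% of the 8440 gene-end regions were gained and 0.640% lost. Inside genes 5.90% were gained and 13.5% lost, and between genes 2.31% and 13.0%. Gained regions were broad, with a median of 855 bp, and lost regions short, with a median of 278.5 bp. Regions in all 4 lists had a median of 1039 bp, and 72.1% of them were at gene ends.

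These counts depend on how the lists were made alike. With lists of equal covered bases in place of equal peak number, 126 regions were gained and 3703 lost. Of the 1644 lost regions 93.2% overlapped a region lost under that setting, and of the 2240 gained regions 4.78% overlapped a gained one. With the lists as deposited, 4733 were gained and 459 lost, and the overlaps were 17.9% of the lost and 61.4% of the gained regions. With every peak reduced to 200 bp around its summit, so that width no longer enters, 2129 were gained and 2010 lost, and 85.3% of the gained and 97.0% of the lost regions were called again. Leaving out 1 library eases the rule, since 3 lists must then be as called, and gave 3204 to 4473 gained and 2020 to 5243 lost regions. Of the gained regions 77.8% were at gene ends without ZR_DMSO replicate 2, 67.0% without ZR_GSK343 replicate 1, 64.2% without ZR_DMSO replicate 1 and 49.4% without ZR_GSK343 replicate 2. A lost region is therefore one that fell out of the best peaks, not always one without a peak. ZR_GSK343 replicate 1 had a deposited peak at 9.43% of the lost regions and replicate 2 at 81.6%, there at a median rank of 18737.5. For 295 lost regions neither deposited ZR_GSK343 list had a peak. For 1376 gained regions neither deposited ZR_DMSO list had one.

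Lost regions were mostly open in untreated fusion cells and mostly not in empty-vector cells. These other libraries took no part in the calls, but the 4 lists that defined the regions all came from fusion cells. Lost regions were chosen for a peak in both ZR_DMSO lists, so the choice itself favours ZR over EV. The p-value below does not allow for that. At equal list length a peak lay at 74.3% and 74.1% of the lost regions in ZR, at 12.1% and 12.2% in EV, and at 64.5% and 61.9% in ZR_dmCitra. ZR exceeded EV by 62.0 ± 0.192 percentage points (SD of the difference, n = 2 each, two-sided exact permutation test, p = 0.333, the smallest possible, adjusted p = 0.417). Of the lost regions, 964 (58.6%) had a peak in both ZR lists and neither EV list, and 12 had the opposite. For regions in all 4 lists, 5.86% were in both ZR and neither EV. Regions away from genes in all 4 lists were intermediate: between genes, ZR had a peak at 65.2% and 65.8% of them and EV at 50.6% and 50.9%, whereas for lost regions between genes the values were 73.9% and 72.3% against 11.2% in both EV lists. Gained regions differed from lost ones in the order of the groups. At equal length a peak lay at 35.4% and 35.7% of them in ZR and at 54.3% and 57.2% in EV, a difference of −20.2 ± 2.03 points (exact permutation p = 0.333). This order held at gene ends (36.1% and 35.5% in ZR, 56.9% and 60.4% in EV) and inside genes (34.0% and 38.9%, 50.8% and 52.3%). Between genes the groups were alike, at 30.9% and 31.5% in ZR and 31.5% and 30.2% in EV. EV lists also held more gene-end peaks of any kind, 55% and 55.9% against 46.3% in both ZR lists. Gained regions were not new sites in these cells, since the deposited ZR lists had a peak at 98.4% and 98.7% of them, at median ranks of 14741.5 and 14477. The deposited EV lists had one at 93.5% and 96.25%, so EV did not exceed ZR there. In the second library series a peak lay at 63.7% and 65.1% of the lost regions in DMSO_50K, labelled empty vector, and at 27.6% and 25.2% in Citraconate_50K, labelled fusion. These values go against the cell line labels, since the libraries labelled empty vector lie nearer to ZR and those labelled fusion nearer to EV. Whether the labels were exchanged was not tested, so which cells these 4 libraries hold is unsure, and cell line and agent cannot be told apart in them.

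**Figure D2:**
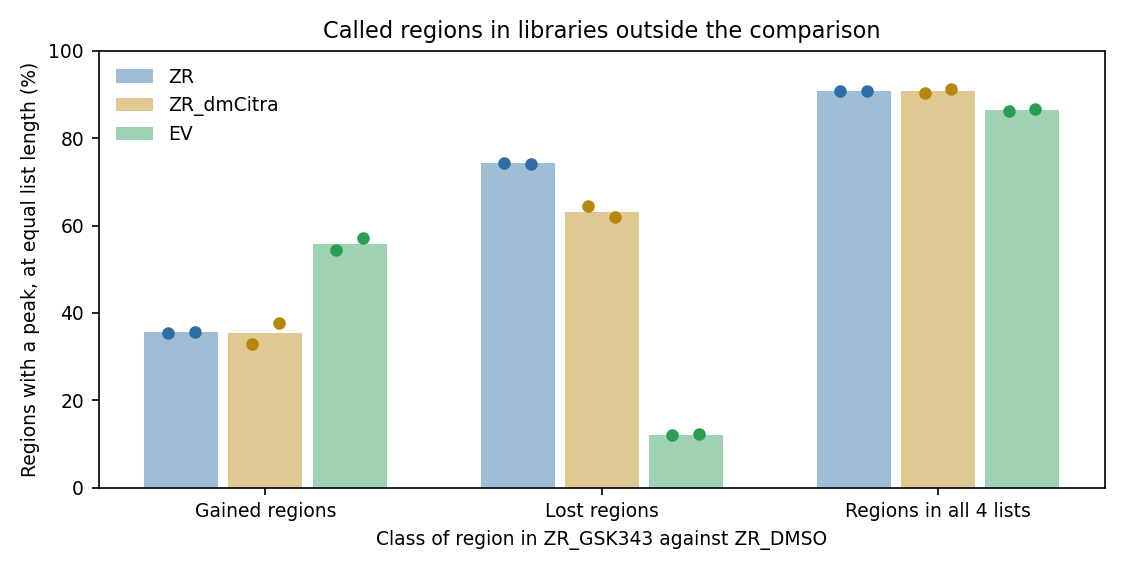
Percent of the gained, lost and shared regions of ZR_GSK343 against ZR_DMSO that have a peak in ZR, ZR_dmCitra and EV libraries, all lists at 11806 peaks; points are libraries and bars the means of 2. A peak lies at 74.3% and 74.1% of the lost regions in ZR and at 12.1% and 12.2% in EV, and gained regions are found more often in EV than in ZR.

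The best-ranked lost regions between genes differed from most lost regions. The 8 lost regions between genes with the best ranks were 110 to 197 bp wide, and none of them had a peak in the best 11806 of any ZR or EV library. The first lay 12358 bp from the nearest gene end, that of Ifngr2, a subunit of the interferon gamma receptor, at chr16:91534590-91534701 (mm10). Its peak ranked 74 and 78 of 11806 in ZR_DMSO with 46.4-fold and 56.9-fold enrichment over background by the authors' values, and neither deposited ZR_GSK343 list had a peak there. The next lay near Ndufb3, a subunit of respiratory complex I, with ranks 134 and 115, and near Chst2, with ranks 111 and 155. Inside genes the best lost regions were in Gsdma2 (382 and 431), Abcc4, an organic anion exporter (387 and 494), Atp1a4, a sodium pump subunit (569 and 966), Ice1 (518 and 988), Epm2a (1075 and 483), Kmo, an enzyme of tryptophan breakdown (508 and 1078), Uggt2 (1108 and 900) and Tyw1 (781 and 1152). Of these 8, the regions in Abcc4, Atp1a4, Ice1, Kmo, Uggt2 and Tyw1 also had a peak in both equal-length ZR lists, and those in Abcc4 and Atp1a4 in both EV lists too.

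Some genes had several lost regions away from gene ends. Of 9425 regions away from gene ends and within 100 kb of one, 1156 were lost (12.3%) and 455 gained (4.83%). The lost ones fell to 970 genes, of which 31 had at least 3. Sgms1, a sphingomyelin synthase, had 5 lost among 8 such regions. Bcl2, an inhibitor of apoptosis, had 4 of 6, Tnfrsf21, a death receptor of the TNF family, 4 of 5, Mbnl2, a splicing regulator, 4 of 12, Pde4d, a cAMP phosphodiesterase, 4 of 6 and Pdia4, a chaperone of the endoplasmic reticulum, 4 of 8. Genes with 3 included the VEGF receptor gene Flt1, the activin subunit gene Inhbb, the bZIP factor gene Maf and the repulsive guidance ligand gene Sema3a. None of these 10 genes had a gained one. Oligodendrocyte genes had 7 lost among 19 such regions and 0 gained, and the group of AP-1 factors 5 lost and 3 gained among 23. On the gained side, Tex14 had 5 of 6, and Plec, Dab2ip and Ctif had 3 each. The splicing regulator Msi1, the signalling inhibitors Smad7 and Socs3 and the ligand Wnt5a had 2 each. The largest number of lost regions, 17, fell next to Gas8, and all 17 lay in the neighbouring array of 5S ribosomal RNA genes described below.

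At gene ends the calls were nearly all gains. Of 9368 genes with a gene-end peak in any of the 4 lists, 1965 gained one (21.0%), 34 lost one (0.363%) and 3772 kept one throughout. With equal covered bases 139 genes gained and 1085 lost one, so the direction at gene ends turns with that choice. Leaving out 1 library gave 2283 to 2921 gained and 54 to 195 lost genes, the most lost without ZR_GSK343 replicate 2. Among these settings the one without ZR_DMSO replicate 1 used 18324 peaks per list. With ZR in place of ZR_DMSO 1103 genes gained and 136 lost one, also at 18324 peaks per list, so control and list length both changed. The gained gene-end regions with the best ranks were at Agps, an enzyme of ether lipid synthesis, Dip2a, Hhex, Man1a, Phf7, Qk, Lsm6 and Tubgcp3. At Agps the peak ranked 624 and 1091 in ZR_GSK343, with 13.6-fold and 37.5-fold enrichment, and no ZR_DMSO list had a peak there. At Hhex the ranks were 990 and 1233, and ZR_DMSO replicate 2 had a deposited peak at rank 13822. Away from gene ends the best gained regions were in Exoc6, Map3k1, Mbnl1 and Hivep2, and in Lhx2, a homeodomain factor of the forebrain, 11220 bp from the nearest gene end, with ranks 2969 and 2780. Between genes they lay near Dnttip2, Tcf12, Xirp1, Rab2a, Cstad, Chp1, Zfp36 and Tgfbr3, and those near Chp1 and Zfp36 had no peak in the equal-length ZR or EV lists.

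PRC2 is the target complex of the inhibitor. Of its 13 subunit genes with a peak 2 gained one, 6 had one throughout and 0 lost one. Losses were rare among all genes too, at 0.363%. Ezh2 itself ranked 2215 and 1476 in ZR_DMSO and 4121 and 3313 in ZR_GSK343, a shared region with better ranks in ZR_DMSO. Its partners Suz12 (7521 and 6508, then 4997 and 7891) and Jarid2 (4188 and 6592, then 1120 and 966) were also in all 4 lists. The gained ones were Ezh1, the other catalytic subunit gene, with no peak in either deposited ZR_DMSO list and ranks 9777 and 5672 in ZR_GSK343, and Mtf2, which recruits the complex to CpG islands, with ranks 6192 and 2432 and a deposited ZR_DMSO replicate 2 peak at rank 16923. Eed had no peak in ZR_DMSO replicate 1, rank 8660 in replicate 2, and ranks 1690 and 4757 in ZR_GSK343. The share of 15.4% gained is to be read against 21.0% of all genes.

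PRC1 had 6 of 17 genes gained (35.3%) and 7 in all 4 lists. The gained ones included the chromodomain genes Cbx2 and Cbx6, the Polyhomeotic genes Phc2 and Phc3, and Pcgf6. Cbx6 ranked 5881 and 4979 in ZR_GSK343, Cbx2 9802 and 6928 and Phc3 4624 and 7766. Cbx6 had a deposited ZR_DMSO peak, at rank 13402 in replicate 2, and Cbx2 and Phc3 had none in either replicate. The ubiquitin ligase gene Rnf2 was in all 4 lists, at 2755 and 1530 against 1491 and 935, as was Bmi1, at 6651 and 6942 against 2184 and 1501. Among demethylases and factors that oppose Polycomb 6 of 16 were gained (37.5%), among them the methyltransferase genes Nsd2 (3546 and 3627), Kmt2c (4677 and 2284), Kmt2a (9442 and 4611) and Ash1l (6981 and 5436) and the acetyltransferase gene Crebbp (8774 and 4668). These ranks are those of ZR_GSK343. The shares of 35.3% and 37.5%, of 17 and 16 genes, are to be read against 21.0% of all genes and 30.3% of ribosomal protein genes.

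Developmental regulators are the classical Polycomb targets. Of 39 Hox genes only Hoxa4 and Hoxa9 had a gene-end peak in any of the 4 lists, in ZR_GSK343 replicate 2 alone, at ranks 7410 and 5768. None was called gained. In the deposited lists Hox genes with a peak numbered 0 in both ZR_DMSO libraries, 1 and 7 in ZR_GSK343, 4 and 2 in ZR and 0 in both EV libraries. These lists differ in length, and the 7 came from the list of 55369 peaks. Of 26 forkhead genes 9 had a peak and 5 were gained (55.6%, against 21.0% of all genes). Foxh1, a partner of SMAD proteins, ranked 3886 and 4840, Foxf1 6375 and 5075, Foxc1, of the mesenchyme and meninges, 7585 and 3135, Foxj1, the master gene of motile cilia, 5759 and 9053, and Foxf2 6631 and 10509. Foxc1 had a peak in all ZR and EV lists at equal length, and Foxf1 in ZR replicate 1 alone.

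Of 64 homeodomain genes outside Hox 16 had a peak and 6 were gained (37.5%). Besides Hhex these included Msx1 (5391 and 4437), Dlx1, of forebrain interneurons (6052 and 2978), Gbx1 (9169 and 9179) and Emx2, of the cortex (6888 and 10929). Dlx1 had no peak within 1 kb of a gene end in either deposited ZR_DMSO list. It was not called gained with gene-end windows of 500 bp or 2 kb or with summit windows. Within 2 kb only 1 more ZR_GSK343 than ZR_DMSO list had a peak. In the deposited lists homeodomain genes with a gene-end peak numbered 6 and 8 in ZR_DMSO, 18 and 37 in ZR_GSK343, 19 in both ZR libraries, and 15 and 20 in EV. Replicate 2 of ZR_GSK343 stood above the others there, with the longest of these lists, 55369 peaks. At equal length the numbers were 6 and 4 in ZR_DMSO, 13 and 14 in ZR_GSK343, 7 in both ZR libraries, and 9 and 7 in EV. Of the 10 Pax, T-box, Gata and related genes with a peak, Sall3 (4539 and 4868) and Osr2 (5117 and 4522) were gained, 20.0% against 21.0% of all genes. Cyclin-dependent kinase inhibitors include a well known Polycomb target, Cdkn2a. None of the 7 with a peak was gained. Cdkn2a had a peak in replicate 2 of each group, at 7124 in ZR_DMSO and 6080 in ZR_GSK343, and Cdkn1c in ZR_GSK343 replicate 2 alone, at 11439.

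**Figure D3:**
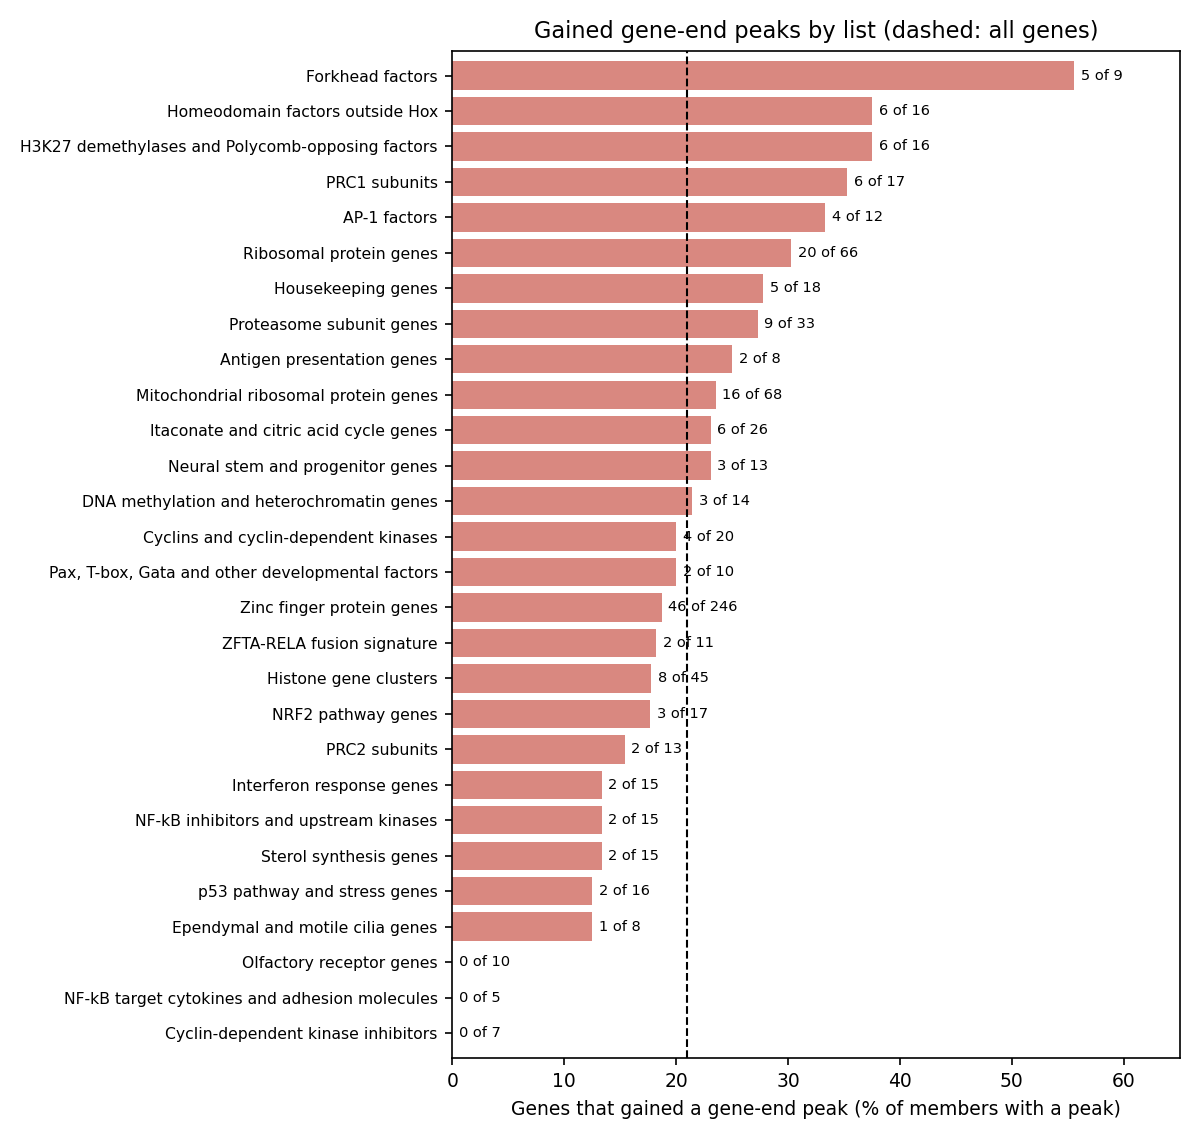
Percent of the genes in each list that gained a gene-end peak in ZR_GSK343, out of the list members with such a peak in any of the 4 lists, for lists with at least 5 of them; the dashed line is the 21.0% of all genes. Forkhead genes stand at 55.6%, with 5 of 9, and the cyclin-dependent kinase inhibitors at 0 of 7.

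The RELA side of the fusion leads to the NF-kB genes. Of the 4 subunit genes with a peak Nfkb1 was gained, at 6142 and 2195, with a deposited ZR_DMSO replicate 2 peak at 14198. Rela had a peak at 10871 in ZR_DMSO replicate 1, none in the equal-length list of replicate 2, and peaks at 2951 and 2103 in ZR_GSK343; no ZR or EV list held one among its best 11806. Of 15 inhibitors and kinases of the pathway 2 were gained (13.3%): Tnfaip3, the deubiquitinase A20 that shuts the pathway off, at 2781 and 873, and the kinase gene Ikbkb, at 8225 and 7830. Tnfaip3 had no deposited ZR_DMSO peak but had one in both ZR lists, at 4824 and 3871, and both EV lists, at 3737 and 1883. Nfkbia, the inhibitor IκBα, had ranks 5097 in ZR_DMSO replicate 1 and 686 and 1666 in ZR_GSK343. None of the 5 NF-kB target cytokine and adhesion genes with a peak was gained or lost. Of all genes 21.0% were gained and 0.363% lost.

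Genes associated with the fusion in ependymoma gave 2 gained of 11 (18.2%), Vegfa (8871 and 4274) and Cachd1 (10420 and 9703), and 0 lost. These shares and the gained shares that follow are to be read against 21.0% gained and 0.363% lost of all genes. Ccnd1, the cyclin D1 gene, had a peak in ZR_GSK343 replicate 2 alone, at 11441. Elovl2, Gli2 and Jag1 had one in all 4 lists. Neural stem genes gave 3 gained of 13 (23.1%): the RNA-binding protein gene Msi2, the helix-loop-helix inhibitor gene Id1 and the Notch ligand gene Dll1. Msi2 ranked 6555 and 4950 in ZR_GSK343. Dll1 was not called gained with the 500 bp window. Sox9, Vim, Hes1 and Notch2 were in all 4 lists. AP-1 factors gave 4 gained of 12 (33.3%). Maff ranked 2495 and 4383, Fosl1 2538 and 4398, Fosb 8141 and 8486 and Fos 11217 and 4962. Each of these 4 had a deposited peak in ZR_DMSO replicate 2 outside its best 11806. The gained call ended with the 500 bp window for Maff, with the 2 kb window for Fosb, and with both windows and with summit windows for Fosl1. The best gene-end peaks of Fosl1 lay at opposite ends of the gene in ZR_DMSO replicate 2 and in ZR_GSK343. Acod1, whose enzyme makes itaconate, had no peak in the 4 equal-length lists. Citric acid cycle and itaconate genes gave 6 gained of 26 (23.1%), among them Dld (4358 and 5389), Dlst (4370 and 6934), Ogdh (9695 and 4503) and Gls2 (6517 and 4019).

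Lists of genes in constant use, and of zinc finger genes, are set beside the same 21.0%. Ribosomal protein genes gave 20 of 66 (30.3%), proteasome subunit genes 9 of 33 (27.3%), housekeeping genes 5 of 18 (27.8%), mitochondrial ribosomal protein genes 16 of 68 (23.5%) and zinc finger protein genes 46 of 246 (18.7%). Mrpl18 ranked 1164 and 1007 in ZR_GSK343, had no peak within 1 kb of a gene end in either deposited ZR_DMSO list, and stood at 352 and 445 in ZR. Within 2 kb it had a peak in as many ZR_DMSO as ZR_GSK343 lists, so its call rests on the window edge. It was not called gained with gene-end windows of 500 bp or 2 kb or with summit windows. Rps3a1 ranked 4638 and 1700, with a ZR_DMSO replicate 2 peak at 16692, and Zfp771, not called gained with the 2 kb window, 2325 and 3321. Interferon response genes gave 2 of 15 (13.3%), Ifit2 and Irf1, and antigen presentation genes 2 of 8 (25.0%), Tap2 and Tapbp. Cyclins and their kinases gave 4 of 20, histone genes 8 of 45, NRF2 pathway genes 3 of 17, p53 pathway and stress genes 2 of 16, sterol synthesis genes 2 of 15 and DNA methylation and heterochromatin genes 3 of 14. Among genes of other cell types, neuronal genes gave 0 of 4, astrocyte genes 1 of 3 (Aldoc, not called with the 500 bp window), oligodendrocyte genes 0 of 1, microglia and immune genes 1 of 3 (Spi1), mesenchymal and vascular genes 0 of 2 and cilia genes 1 of 8 (Foxj1). Olfactory receptor, germline and protocadherin genes gave 0 of 10, 0 of 1 and 0 of 1. Each share is to be read against the 21.0% of all genes, and no list was tested.

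The 34 genes that lost a gene-end peak were mostly outside the lists. Those in a list were the zinc finger gene Zfp58, at 4201 and 4080 in ZR_DMSO, and the olfactory receptor genes Olfr433, at 7365 and 4629 and not called lost with the 500 bp window, and Olfr654, at 3174 and 856. Chosen after their values were seen, the others included Prox1, a homeodomain factor of neurogenesis, at 10384 and 10627, Ankrd1, a mechanically induced co-regulator, at 4414 and 4239, Cd38, an NAD glycohydrolase, at 9861 and 8462, Atf6, of the unfolded protein response, at 8898 and 4621, and Zbp1, a nucleic acid sensor, at 11013 and 7018. At equal length 76.5% and 73.5% of the 34 had a gene-end peak in ZR, and 29.4% and 35.3% in EV. The 34 were chosen for a peak in fusion cells, which favours ZR. ZR_GSK343 replicate 1 had a deposited gene-end peak at 6 of the 34 and replicate 2 at 29. Read as regions, the best-ranked losses at gene ends included those at Gm13285, Wdr60, Ifnz (interferon zeta), Olfr654, Gm9758, Gm21814 and Adhfe1. Those at Gm13285, Ifnz, Gm9758 and Gm21814 had no peak in the equal-length ZR or EV lists.

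Promoter sequence was compared for the genes with a known start site. RefSeq gave 250 bases before to 50 after the start for 20085 start sites of 16457 genes, 79.6% of the protein-coding genes (GRCm38.p6, the coordinates of mm10). Promoters that overlapped a gained region were rich in CpG, with a median of 25 CpG dinucleotides per window (n = 1852), as were those in all 4 lists (25, n = 3778). Promoters that overlapped a lost region had a median of 8 (n = 21), and those with no region 5 (n = 11258). The GC box GGGCGG, searched on both strands, was in 73.4% of gained, 76.3% of shared and 23.8% of lost promoters, and in 47.0% of all promoters. The CCAAT box, CCAAT on both strands, was in 29.9% of gained and 46.0% of shared promoters, against 38.1% of all. Among promoters with at least 20 CpG it was in 25.9% of the 1338 gained and 42.7% of the 2772 shared ones. The AP-1 motif TGANTCA, with any base at N and on both strands, was in 6 of the 21 lost promoters (28.6%), 3.08% of gained, 3.79% of shared and 7.06% of all promoters, and in 9.53% of those with no region. TGANTCA overlaps none of the other motifs searched. These are matches of letters and not sites shown to be bound.

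The sequences of 4 of the 6 lost promoters with the letters TGANTCA are shown, chosen after their values were seen. Each runs 5′ to 3′ on the gene's strand with every match in capitals. Dclk1 makes a doublecortin-like kinase, Otub2 a deubiquitinase, Scel the epithelial protein sciellin and Sgms1 the sphingomyelin synthase with 5 lost regions away from gene ends.
Dclk1: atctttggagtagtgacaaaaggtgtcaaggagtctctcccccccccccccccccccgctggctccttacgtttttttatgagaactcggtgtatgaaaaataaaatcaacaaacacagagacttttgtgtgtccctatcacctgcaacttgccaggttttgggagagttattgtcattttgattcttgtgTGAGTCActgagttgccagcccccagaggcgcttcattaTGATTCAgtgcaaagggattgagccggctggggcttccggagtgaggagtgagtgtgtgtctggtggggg
Otub2: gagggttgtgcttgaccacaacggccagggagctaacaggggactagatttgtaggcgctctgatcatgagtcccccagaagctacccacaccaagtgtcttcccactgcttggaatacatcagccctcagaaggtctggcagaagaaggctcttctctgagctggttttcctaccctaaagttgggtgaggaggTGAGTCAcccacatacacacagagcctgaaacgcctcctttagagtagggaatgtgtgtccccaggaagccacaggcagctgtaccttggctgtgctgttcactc
Scel: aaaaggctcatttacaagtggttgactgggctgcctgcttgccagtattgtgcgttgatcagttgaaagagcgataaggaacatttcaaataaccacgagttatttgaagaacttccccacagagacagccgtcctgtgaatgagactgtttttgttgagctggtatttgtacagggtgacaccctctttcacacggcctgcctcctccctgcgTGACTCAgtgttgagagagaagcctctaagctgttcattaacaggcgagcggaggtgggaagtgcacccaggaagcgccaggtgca
Sgms1: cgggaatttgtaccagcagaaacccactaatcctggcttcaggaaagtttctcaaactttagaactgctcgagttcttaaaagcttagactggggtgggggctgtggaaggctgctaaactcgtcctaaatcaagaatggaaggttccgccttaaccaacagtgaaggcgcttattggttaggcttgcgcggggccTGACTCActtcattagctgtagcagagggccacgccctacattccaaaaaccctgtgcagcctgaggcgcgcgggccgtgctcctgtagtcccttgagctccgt
The windows are, in that order, chr3:55461478-55461777 on the plus strand, chr12:103376644-103376943 on the plus strand, chr14:103513091-103513390 on the plus strand and chr19:32210964-32211263 on the minus strand. Dclk1 has 2 matches and each of the others 1, and the 4 windows hold 6, 3, 9 and 13 CpG. The windows of Dclk1 and Sgms1 belong to start sites inside the genes, and at the gene ends both genes were called gained, with ranks 6975 and 10304 for Dclk1 and 3438 and 1688 for Sgms1 in ZR_GSK343. Otub2 and Scel also lost a peak by the gene-end call. The Otub2 peak ranked 2401 and 4054 in ZR_DMSO and 6509 and 6097 in the deposited ZR lists, and that of Scel 10673 and 3547, then 7278 and 10306.

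For contrast, promoters with a gained or shared peak follow, with GC boxes in capitals for Tnfaip3 and Foxc1, both gained, and CCAAT in capitals for Ezh2, in all 4 lists.
Tnfaip3: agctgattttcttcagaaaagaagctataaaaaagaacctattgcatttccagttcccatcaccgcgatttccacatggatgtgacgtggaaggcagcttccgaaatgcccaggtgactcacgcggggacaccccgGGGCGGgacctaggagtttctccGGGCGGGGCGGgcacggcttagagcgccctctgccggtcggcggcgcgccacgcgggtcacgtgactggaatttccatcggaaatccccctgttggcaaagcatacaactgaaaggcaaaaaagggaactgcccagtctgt
Foxc1: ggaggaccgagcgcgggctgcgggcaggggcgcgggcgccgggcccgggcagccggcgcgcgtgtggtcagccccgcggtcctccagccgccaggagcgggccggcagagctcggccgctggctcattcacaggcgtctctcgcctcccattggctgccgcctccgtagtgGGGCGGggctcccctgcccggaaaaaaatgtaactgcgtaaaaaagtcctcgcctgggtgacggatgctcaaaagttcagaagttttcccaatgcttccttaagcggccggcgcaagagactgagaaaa
Ezh2: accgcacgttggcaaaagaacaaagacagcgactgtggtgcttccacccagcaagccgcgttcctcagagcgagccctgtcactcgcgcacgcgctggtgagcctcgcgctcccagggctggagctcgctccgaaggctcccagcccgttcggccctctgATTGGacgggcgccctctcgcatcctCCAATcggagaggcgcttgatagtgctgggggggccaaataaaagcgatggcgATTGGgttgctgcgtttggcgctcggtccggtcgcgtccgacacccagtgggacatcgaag
The windows are chr10:19015361-19015660 on the minus strand, chr13:31806396-31806695 on the plus strand and chr6:47594981-47595280 on the minus strand, with 22, 32 and 31 CpG. Tnfaip3 has 3 GC boxes and Foxc1 has 1, and Ezh2 has 3 CCAAT matches and 0 GC boxes. The Tnfaip3 window also holds 1 TGANTCA match, not marked.

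Regions in all 4 lists allow a comparison that the calls do not use, namely their rank within each list. Each of the 4502 shared regions was given a percentile among them, 100 being the best. A region was ranked higher when both ZR_GSK343 percentiles exceeded both ZR_DMSO percentiles by at least 10 points. This held for 741 regions (16.5%), and 696 were ranked lower (15.5%). Leaving out ZR_DMSO replicate 1 gave 2135 and 1963, with lists of 18324 in place of 11806 peaks. At 11806 peaks the counts were 1383 and 1243 without ZR_DMSO replicate 2. They were 1399 and 1362 without ZR_GSK343 replicate 1, and 1257 and 1222 without ZR_GSK343 replicate 2. At gene ends 636 were higher and 391 lower, inside genes 85 and 128, and between genes 20 and 177. The median percentile of shared regions between genes was 62.3 and 59.1 in ZR_DMSO and 52.4 and 17.9 in ZR_GSK343, so that the shift was far larger in replicate 2. At gene ends the medians were 48.5 and 48.6 against 51.2 and 56.2. As a description, the ranks correlated across the 4502 regions with a Spearman rho of 0.69 between the ZR_DMSO replicates, 0.64 between the ZR_GSK343 replicates and 0.36 to 0.41 between the groups; regions of a list share its depth and normalization.

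**Figure D4:**
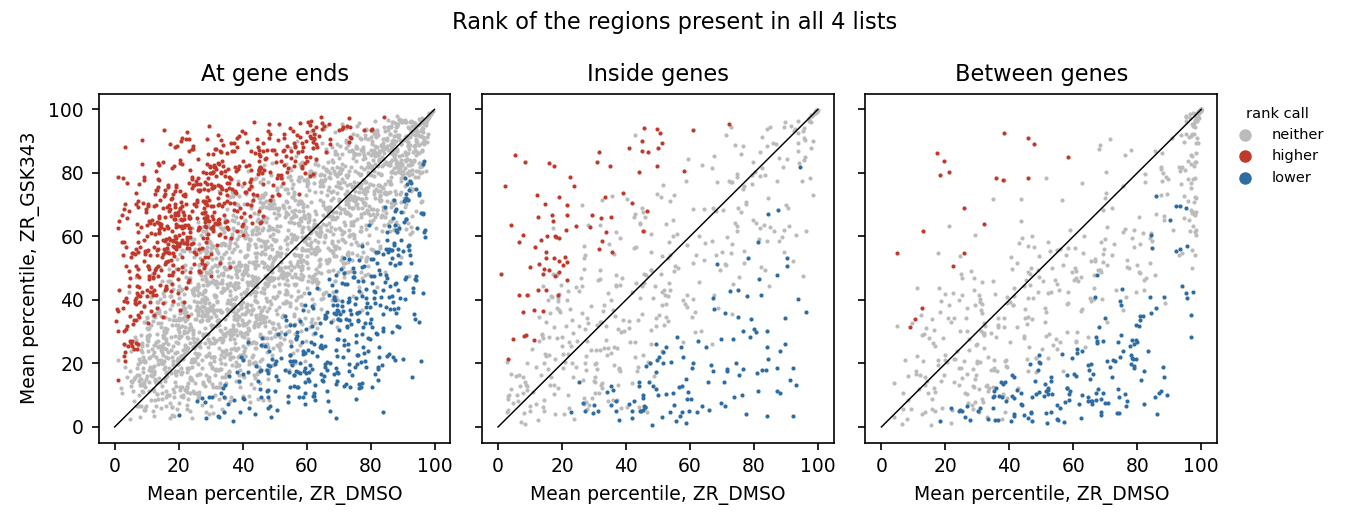
Mean percentile of each region present in all 4 lists in the 2 ZR_DMSO libraries (horizontal) and the 2 ZR_GSK343 libraries (vertical), by position; red regions were ranked higher and blue ones lower by at least 10 points in every pair of libraries, and the line marks equal rank. Between genes 177 regions are lower and 20 higher, while at gene ends 636 are higher and 391 lower.

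The largest upward gap was at the gene end of Gorasp2, a Golgi stacking protein, at chr2:70661083-70662055, where the peak ranked 9627 and 11623 in ZR_DMSO and 477 and 638 in ZR_GSK343. Serinc5, a membrane protein that restricts retroviruses, went from 9249 and 9284 to 310 and 590, and Tm7sf3 from 7022 and 8595 to 362 and 271. Spin1, a reader of histone methylation, Exoc8, Gpr146, Pip5k1b and Zbtb10 completed the 8 largest. All 8 had a peak in both equal-length ZR lists. Downward, a region inside Lrrk2, the kinase gene of familial Parkinson's disease, at chr15:91703135-91703742, went from 425 and 395 to 10037 and 10233. It ranked 351 and 280 in ZR and 640 and 883 in EV. A region in Map2k6, a kinase upstream of p38, went from 262 and 486 to 7511 and 6927. It ranked 427 and 350 in ZR and had no peak in the equal-length EV lists. The other 6 were at Xkr5, near Nfatc2, in Tspan14, near Kif21a, in Hhat and near Emb. The regions near Kif21a and Emb also had a peak in both ZR lists and neither EV list.

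Zinc finger genes were the largest list in this ranking, with 29 of the 88 shared gene-end regions nearest to them lower and 8 higher, against 12.1% lower and 19.6% higher of all shared gene-end regions. Regions of ribosomal protein genes had 0 of 13 in either direction, and those of the citric acid cycle list 3 lower and 1 higher of 11. PRC1 genes had 3 higher and 0 lower of 7.

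Calls also differed by chromosome. Gene-end regions were gained most often on chromosome 11 (31.3% of 639) and chromosome 9 (26.2% of 412), and least on chromosome 19 (12.4% of 356) and chromosome 1 (15.2% of 540). On chromosomes 4, 9 and 11 few gene-end regions were in all 4 lists, 14.9%, 22.3% and 16.9%, against 37.1% to 52.8% on the other 16 chromosomes. Chromosome 4 had 1.97% and 1.85% of ZR_DMSO peaks, 2.12% and 4.20% of ZR_GSK343 peaks, 2.75% and 2.65% of ZR peaks and 6.23% and 6.39% of EV peaks. Chromosome 9 had 2.74% and 2.62% of ZR_DMSO, 3.12% and 4.15% of ZR_GSK343, 3.59% and 3.76% of ZR and 4.68% and 4.79% of EV peaks. Chromosome 11 had 3.73% and 4.02% of ZR_DMSO, 5.82% and 7.07% of ZR_GSK343, 3.27% and 3.33% of ZR and 5.39% and 5.09% of EV peaks. Away from gene ends the lost share was highest on chromosomes 6 (19.3%) and 3 (19.3%) and lowest on chromosomes 11 (7.75%) and 4 (8.25%). Ezh1, Cbx2, Foxj1 and Msi2 lie on chromosome 11. Copy number in these cells was not tested.

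**Figure D5:**
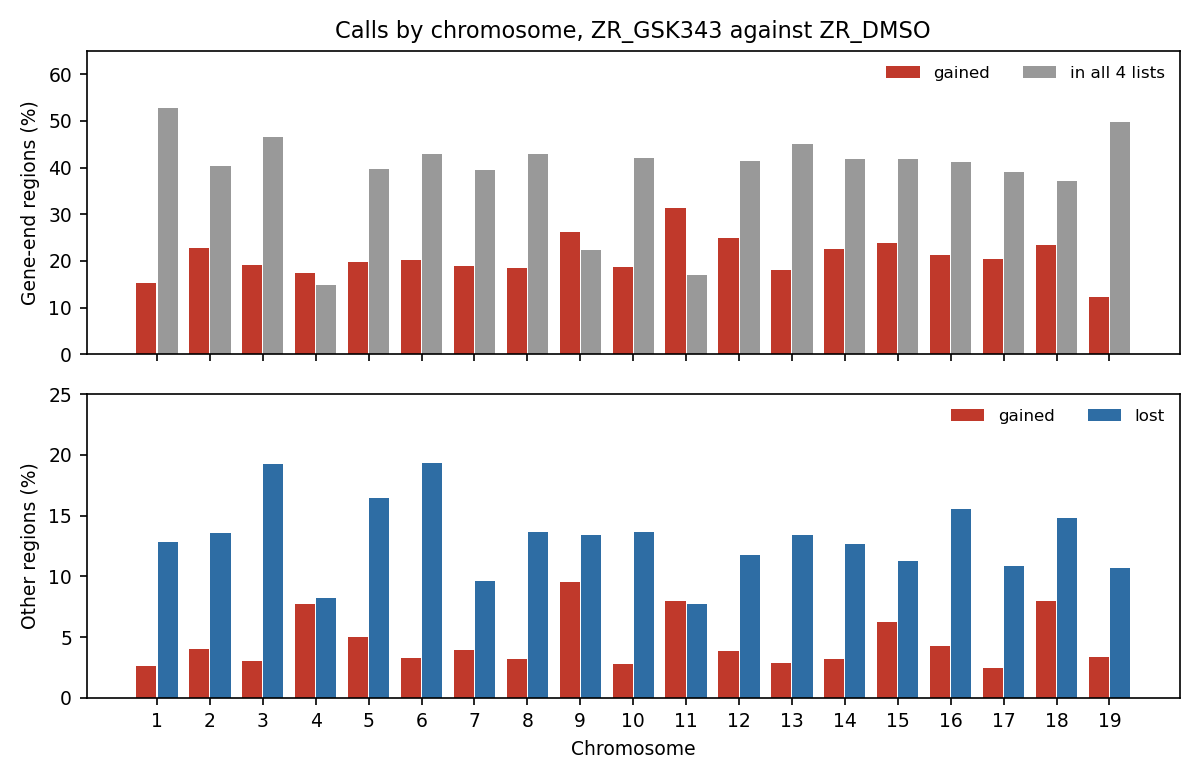
Percent of gene-end regions gained or in all 4 lists (top) and percent of the other regions gained or lost (bottom) on each chromosome. Chromosomes 4, 9 and 11 have the fewest gene-end regions in all 4 lists, 14.9%, 22.3% and 16.9%, and chromosome 11 has the most gained, 31.3%.

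Genes of RNA polymerase III products gave 1 block of losses. An array of 48 annotated 5S ribosomal RNA genes, at chr8:123538784-123622046, held 48 regions, of which 20 were lost, 15 were in all 4 lists and 0 were gained, against 8.04% lost and 10.9% gained of all merged regions. The best 11806 peaks of ZR_DMSO included 106 and 80 in this array and those of ZR_GSK343 38 and 19. The ZR, EV and ZR_dmCitra lists had 0 at equal length, although their deposited lists had 34 to 72. The deposited lists had 106 and 90 in ZR_DMSO and 63 and 54 in ZR_GSK343, so the groups did not overlap on either count. The genes are near-identical copies, so reads can be placed on any of them and the 48 regions are not independent. Beside the same shares, transfer RNA genes overlapped 85 regions, of which 13 were gained (15.3%) and 1 lost (1.18%), and microRNA genes 67, of which 19 were gained (28.4%) and 0 lost.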

How the data were processed

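Peak lists of 14 ATAC-seq libraries were used, 4 of them compared here. Libraries of 50000 cells were sequenced as paired 50 nt reads, per the labels' protocols. The submitters' processing notes list the build mm10 and the tools BWA, Picard and SAMtools, with no version. MACS2 appears in the peak names of the deposited files, 1 list per library; its version, its settings and whether reads were shifted for Tn5 is information not given in the sources used here. Every peak has, as deposited by the authors, a score, a fold value (enrichment as a ratio to background), and a −log10 p-value and q-value, used only to describe or rank peaks within a list. Depth per library is unknown, since no read counts come with the lists.

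Lists were reduced to 11806 peaks by −log10 q and merged over the 4 lists, and a peak overlapping a region by at least 1 bp counted as present. Ties were ordered by fold, p-value, chromosome name as text and start, so the cut could fall within tied peaks and keep some chromosomes before others. Groups came from titles and treatment labels. Gene ends came from a RefSeq table of GRCm38.p6, with 20665 protein-coding genes on chromosomes 1 to 19; symbols were matched to it, and 79.6% had a start site in the promoter table. Library values were tested with two-sided exact permutation tests and Benjamini-Hochberg adjustment (Python 3.11.15, numpy 2.4.6, scipy 1.17.1, pandas 2.3.3, statsmodels 0.14.6, matplotlib 3.10.9). Genes named were up to 4 gained and 4 lost per list and the 8 best-ranked regions of each call and position, with 8 shared regions in each direction and Ezh2, Rela, Acod1, Ccnd1 and L1cam throughout; other members of a list were named for their role or call after their values were seen. L1cam lies on chromosome X and was not analysed here, and some results under this rule are left out. The members, 37 gene lists and tests were chosen with earlier results of these data known. Alternatives were other list lengths, ranking by fold, summit windows, stricter overlap, other gene-end windows, ZR as control, chromosomes X and Y, replicate pairing and leaving out each library; start sites in place of gene ends and the omission of chromosomes 4, 9 and 11 were added after seeing the data.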

Additional observations from a re-analysis of the deposited data

How the results depend on the processing

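The direction at gene ends and the balance of gains and losses depend on how the lists were made alike. With lists as deposited, 4733 regions were gained and 459 lost, 41.8% and 4.36% of them at gene ends, 8 genes lost a gene-end peak, and the gene-end percent of peaks differed by −3.92 points (ZR_GSK343 minus ZR_DMSO). With −log10 q of at least 5 the counts were 4467 and 402, with 46.7% of gains at gene ends and 4 genes lost. With equal covered bases they were 126 and 3703, with 87.3% and 26.2% at gene ends, 139 genes gained and 1085 lost. With 200 bp around each summit 75.4% and 10.6% were at gene ends. Requiring 50% of a region to be covered gave 4250 gained, 80.8% of them at gene ends. Gene-end windows of 500 bp and 2 kb gave 75.1% and 81.4% for gains, 2.01% and 5.05% for losses. Start sites gave 67.4% and 2.25%, and 16 genes lost. Without chromosomes 4, 9 and 11, 75.7% of gains were at gene ends. With ZR in place of ZR_DMSO 4244 regions were lost, 46.4% of gains were at gene ends, and 1103 genes gained and 136 lost a peak. Those lists were cut at 18324 peaks, so the list length changed along with the control. A gap of 20 points left 453 shared regions higher and 438 lower. The cause of these differences was not tested.

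Leaving out each library in turn gave 3204 to 4473 gained and 2020 to 5243 lost regions, 49.4% to 77.8% and 4.16% to 9.16% of them at gene ends, 2283 to 2921 genes gained and 54 to 195 lost, a gene-end difference of 10.4 to 25.1 points, a width difference of 229 to 609 bp, a peak number difference of 2395.5 to 39440.5, and 1257 to 2135 shared regions higher and 1222 to 1963 lower. Without ZR_DMSO replicate 1 the lists were cut at 18324 in place of 11806 peaks. That setting gave the 5243 lost regions, the 10.4 points, and the 2135 and 1963 shared regions. Of 83 named genes 74 kept their call with a 500 bp window, 75 with 2 kb, 41 in the lists as deposited and 78 with summit windows, where Zfp451, with a peak in 2 more ZR_GSK343 than ZR_DMSO lists, came to −1 on that difference, a mixed pattern. Ranking by fold called the same regions and gave the same counts of shared regions higher and lower. Fold and −log10 q thus ordered the peaks alike, and ranking by fold is no separate check. Chromosomes X and Y changed no count by over 1.5 times. With the replicate number as a block, the paired exact permutation p was 0.5 for the peak number (difference 20918), the gene-end percent (21.7) and the width (419), the smallest that 2 pairs allow; deviations of same-numbered libraries correlated at 0.05 over shared regions, so the libraries share a number and nothing shows a pairing.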
